A study of Mus musculus with 6 samples.

Results

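The genes described here are 10 corticosteroid-responsive genes and corticosteroid receptors, measured in colon tumours of mice with and without a human IL8 transgene. They are the response genes Fkbp5, Sgk1, Tsc22d3, Klf9, Errfi1, Zbtb16 and Pdk4, the receptor genes Nr3c1 and Nr3c2, and Hsd11b2, which encodes the enzyme that guards the mineralocorticoid receptor. They were taken as every probe set annotated to exactly 1 of these symbols, which gave 29 of 45101 probe sets. Each probe set reads a transcript through several short oligonucleotides. The genes were selected on measured values, namely the differences between these same groups of arrays at genes such as Fkbp5 and Sgk1, so their differences between the groups are given as a description and carry no test of their own.

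The arrays fall into 3 from tumours of IL8 transgenic mice and 3 from tumours of wild type mice, called control here. All 6 mice are on the mixed CBA/C57BL/6 strain, are recorded as male and were kept on a fixed light and dark cycle. The promoter and cell type that drive the transgene, the age of the mice, how the tumours arose, the hour of collection and whether an array holds a pool are not stated in the labels. The design text counts 3 mice in each group, but no label ties an array to a mouse, so errors measure the spread between these samples, which may be technical. Values are on a log2 scale, where a difference of 1 is a doubling, and the 3 arrays per group limit their precision.

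Glucocorticoids and mineralocorticoids are adrenal steroid hormones that enter cells and bind receptors which then act as transcription factors. The glucocorticoid receptor (Nr3c1) is present in nearly all cell types, while the mineralocorticoid receptor (Nr3c2) is known for its role in salt-transporting epithelia such as kidney tubule and distal colon, where aldosterone acts through it. Both receptors bind the same DNA element and share many target genes, and glucocorticoids can occupy the mineralocorticoid receptor unless Hsd11b2 inactivates them inside the cell. Fkbp5, Sgk1, Tsc22d3, Zbtb16 and Per1 are known as targets that either hormone can induce, whereas the epithelial sodium channel subunits are known for their response to aldosterone in colon.

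The shared DNA element was looked for in the promoter windows of these genes, each 250 bases before and 50 bases after an annotated transcription start, taken from RefSeq on build GRCm38.p6. Of the 10 genes, 7 had such a window that could be shown, 15 windows in all. Those of Fkbp5, Sgk1 and Tsc22d3 were considered because these genes had the 3 largest positive differences among the response genes. Fkbp5 has 1 window, and of the 6 Sgk1 and 3 Tsc22d3 windows the 1 with the most copies of the 6-base arm described next is printed for each, so these windows were picked for holding it. Capitals mark TGTTCT and AGAACA, the same 6-base arm on either strand, and the full element searched was AGAACA, any 3 bases and TGTTCT, a palindrome that reads alike on both strands and contains 2 arms.
Sgk1, chr10:21993640-21993939, plus strand: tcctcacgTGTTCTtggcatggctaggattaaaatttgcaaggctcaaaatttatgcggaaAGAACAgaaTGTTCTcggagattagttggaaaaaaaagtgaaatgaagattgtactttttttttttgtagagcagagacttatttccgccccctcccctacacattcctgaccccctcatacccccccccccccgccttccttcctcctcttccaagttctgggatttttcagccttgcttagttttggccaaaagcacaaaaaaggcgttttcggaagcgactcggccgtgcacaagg
Tsc22d3, chrX:140600473-140600772, minus strand: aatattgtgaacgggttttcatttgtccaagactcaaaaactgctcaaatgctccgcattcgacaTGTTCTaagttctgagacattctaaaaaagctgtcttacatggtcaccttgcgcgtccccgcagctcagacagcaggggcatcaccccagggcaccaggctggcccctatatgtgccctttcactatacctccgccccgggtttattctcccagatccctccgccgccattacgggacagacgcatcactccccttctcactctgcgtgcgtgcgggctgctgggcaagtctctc
Fkbp5, chr17:28486100-28486399, minus strand: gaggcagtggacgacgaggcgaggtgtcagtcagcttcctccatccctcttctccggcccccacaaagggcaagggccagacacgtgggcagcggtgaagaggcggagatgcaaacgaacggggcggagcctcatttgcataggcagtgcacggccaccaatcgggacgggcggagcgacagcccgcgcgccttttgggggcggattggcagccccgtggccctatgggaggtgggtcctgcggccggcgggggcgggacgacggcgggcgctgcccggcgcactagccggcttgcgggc

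The Sgk1 window held the full element with no mismatch, as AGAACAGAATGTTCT at chr10:21993701-21993715, starting at position -189 from that annotated start. Sgk1 has 6 annotated starts in the table, and this was the 1 window of the 15 with the full element. Across the genome table, 3 of 32851 windows, 0.00913%, held it. At least 1 arm was present in 4 of the 15 windows, 3 of Sgk1 and 1 of Tsc22d3, against 19.0% of all windows. The Fkbp5 window held neither, which says only that these letters are not in this window. A match is a description of the sequence and not a bound site.

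Before the results, 4 features of the arrays and labels apply to all that follows. The source label of all 6 samples carries the word control, also for the IL8 transgenic mice, so the groups were taken from titles, which the genotype label matches. All animals are recorded as male, but Xist, the RNA that coats an inactive X chromosome, was at 12.89, 12.27 and 12.78 on the transgenic arrays, against 2.33, 2.64 and 2.44 on the control arrays, and the Y-linked gene Eif2s3y was at 2.71 or less against 9.99 or more. Genotype and this difference cannot be told apart. Transgenic array 2 carried markers of squamous epithelium, with Krtdap at 12.31 against 2.62 or less on the other 5 arrays. Epcam and Krt8, markers of simple epithelia in general, were at 13.58 or more on every array, and the intestinal transcription factor genes Cdx1 and Cdx2 were at 6.56 to 10.27.

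Fkbp5, Sgk1 and Tsc22d3 were higher on every transgenic array than on every control array, Klf9 and Errfi1 were higher by smaller amounts, Pdk4 was lower, and Hsd11b2 varied widely among the transgenic arrays. The receptor genes Nr3c1 and Nr3c2 overlapped between the groups. In limma's fit over all 19310 probe sets tested, 0 of the 18 tested probe sets of these genes had an adjusted p under 0.05, with adjusted p from 0.531 to 0.886, and 8 had an unadjusted p under 0.05. Over all probe sets 0.057% passed, 0.0207% higher and 0.0363% lower, and 5.5% had an unadjusted p under 0.05. Every transgenic array lay above every control array for 8 of the 18 and below for 0, where 4.61% of all probe sets lay above and 6.31% below. Nothing is read from these counts, since the genes were chosen with this comparison known. Without transgenic array 1, 2 or 3 the 8 became 10, 8 or 14, where 10.9%, 7.75% or 13.1% of all probe sets separated upwards. Without control array 1, 2 or 3 it was 11, 8 or 9, where 10.5%, 6.64% or 9.3% did so. No gene passed the filter on low values through the transgenic group alone: each tested probe set other than that of Pdk4 was at 4 or more on all 6 arrays.

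**Figure D1:**
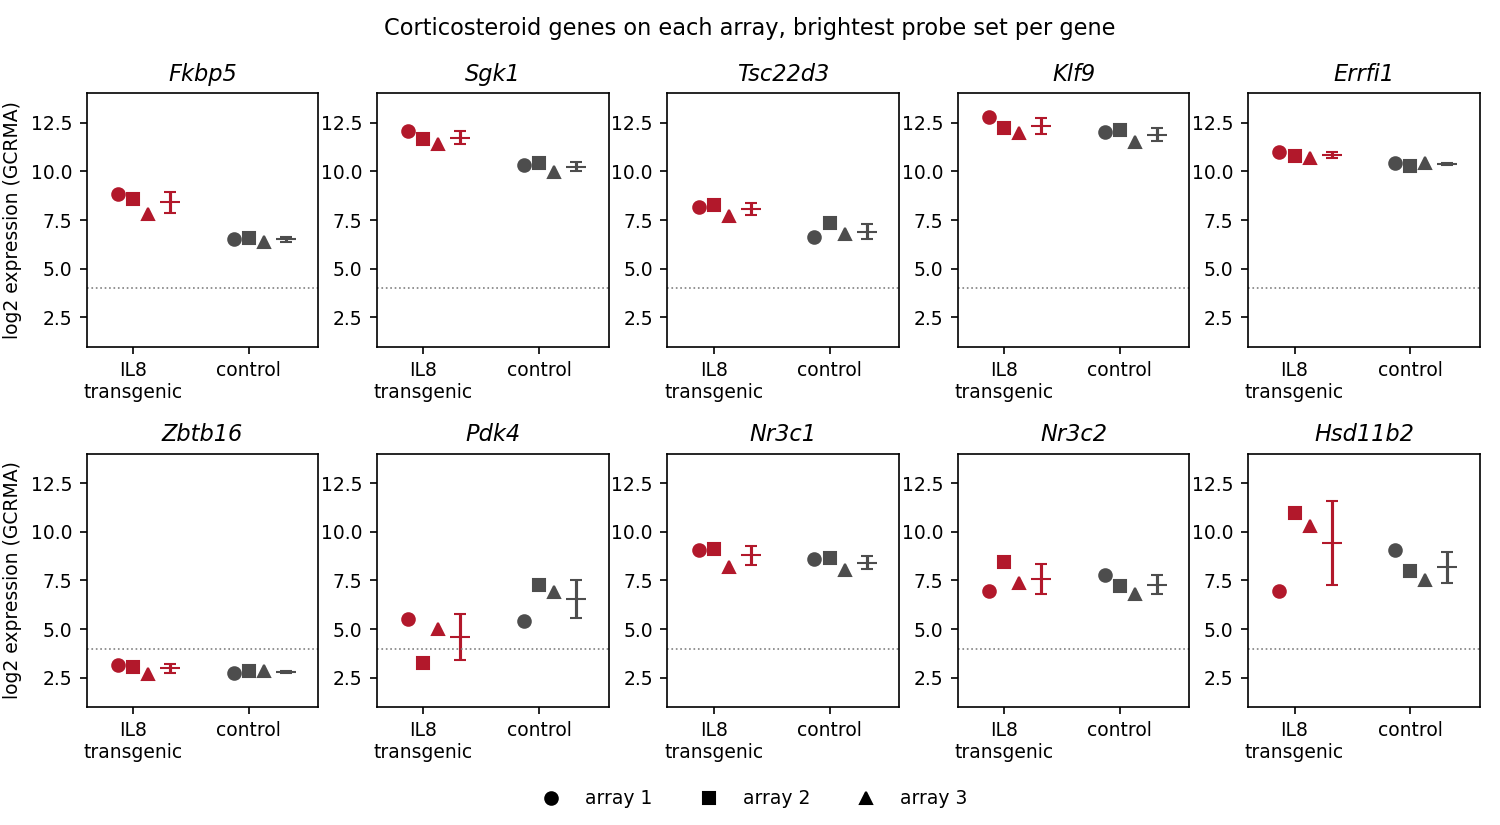
Log2 expression of each of the 10 genes on the 6 arrays, at the probe set with the highest mean, with IL8 transgenic arrays in red left of control arrays in grey, marker shape giving the array number, bars the mean and SD (n = 3), and the dotted line the level of 4 used as the filter. Fkbp5, Sgk1, Tsc22d3 and Errfi1 separate the groups, Zbtb16 stays under the line and Hsd11b2 spans 6.94 to 10.98 on the transgenic arrays.

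Fkbp5 encodes a co-chaperone that binds the glucocorticoid receptor complex with Hsp90 and lowers the receptor's affinity for hormone, and its induction is a classical readout of receptor activity. It was at 8.85, 8.57 and 7.82 on the transgenic arrays, against 6.53, 6.60 and 6.38 on the control arrays. The groups were separated by more than 1 log2 unit, and transgenic array 3 was the lowest of its group. The difference was 1.91 ± 0.28 (SE, n = 3 per group), a 3.75-fold higher level, and it stood 33rd from the top among 10289 genes. The control arrays spanned 0.21 and the transgenic arrays 1.03. The 2 other Fkbp5 probe sets were at 3.34 or less on all arrays and were not tested.

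Sgk1 encodes a kinase that raises sodium channel abundance at the cell surface and is induced early by aldosterone and by glucocorticoids. It was at 12.09, 11.67 and 11.41 on the transgenic arrays, against 10.31, 10.42 and 9.97 on the control arrays. Again no array of either group reached the other group, and the 3 transgenic arrays stood in the same order as for Fkbp5. The difference was 1.49 ± 0.23 (SE), or 2.81-fold, with a range of 1.31 to 1.64 when each array was left out in turn.

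Tsc22d3 encodes GILZ, a leucine zipper protein that mediates anti-inflammatory effects of glucocorticoids. Its brightest probe set was at 8.17, 8.295 and 7.71 on the transgenic arrays, against 6.63, 7.33 and 6.76 on the control arrays, a difference of 1.15 ± 0.26 (SE). The other 2 tested probe sets differed by 0.93 and by 0.46, and all 3 separated the groups. The probe set with the smallest difference carries the suffix that marks probes able to bind other transcripts. Tsc22d3 lies on the X chromosome, and the groups differ in Xist. Over the 287 X-linked genes tested the median difference was -0.0078, and the part of X dosage in the Tsc22d3 value was not tested.

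Klf9 encodes a zinc finger transcription factor that glucocorticoids induce in many tissues and that also cycles with the clock. Its brightest probe set was at 12.78, 12.21 and 11.98 on the transgenic arrays, against 12.03, 12.13 and 11.49 on the control arrays, so the groups overlapped. The difference of 0.43 ± 0.28 (SE) was 0.21 without transgenic array 1 and 0.24 without control array 3. All 5 tested Klf9 probe sets were higher in the transgenic mean, by 0.41 to 0.97, and 2 of them separated the groups. The probe set with the difference of 0.97 was at 8.54, 7.94 and 7.59 on the transgenic arrays, against 7.23, 7.23 and 6.71 on the control arrays.

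Errfi1 encodes Mig6, a feedback inhibitor of the EGF receptor that glucocorticoids induce. It was at 11.00, 10.81 and 10.68 on the transgenic arrays, against 10.41, 10.29 and 10.43 on the control arrays, a small but separated difference of 0.45 ± 0.15 (SE). Its other probe set differed by 0.47 with overlapping groups. Egfr itself, the receptor that Errfi1 inhibits, was at 8.65, 8.71 and 7.95 on the transgenic arrays, against 8.29, 8.07 and 7.78 on the control arrays, with overlap.

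Zbtb16 encodes PLZF, a zinc finger repressor that is strongly induced by corticosteroids in several cell types. All 3 of its probe sets were under 4 on all 6 arrays and none was tested. At 1 of them the values were 3.35, 2.43 and 2.32 on the transgenic arrays, against 1.65, 1.46 and 1.46 on the control arrays. The groups separated upwards there and at another probe set, and overlapped at the brightest. These values lie in the range that the filter treats as background, so no fold is given.

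Pdk4 encodes a kinase that shuts off pyruvate dehydrogenase and is induced by glucocorticoids and by fasting. It went against the other response genes, at 5.49, 3.26 and 4.99 on the transgenic arrays, against 5.42, 7.26 and 6.92 on the control arrays. The groups overlapped, since control array 1 lay just under transgenic array 1. The difference was -1.95 ± 0.71 (SE), -1.71 with values under 4 set to 4, and -1.29 without transgenic array 2, the array with squamous markers. Of the other kinases of the family, Pdk1 differed by 0.79, Pdk3 by 0.19, and Pdk2 was under 4 on all arrays.

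**Figure D2:**
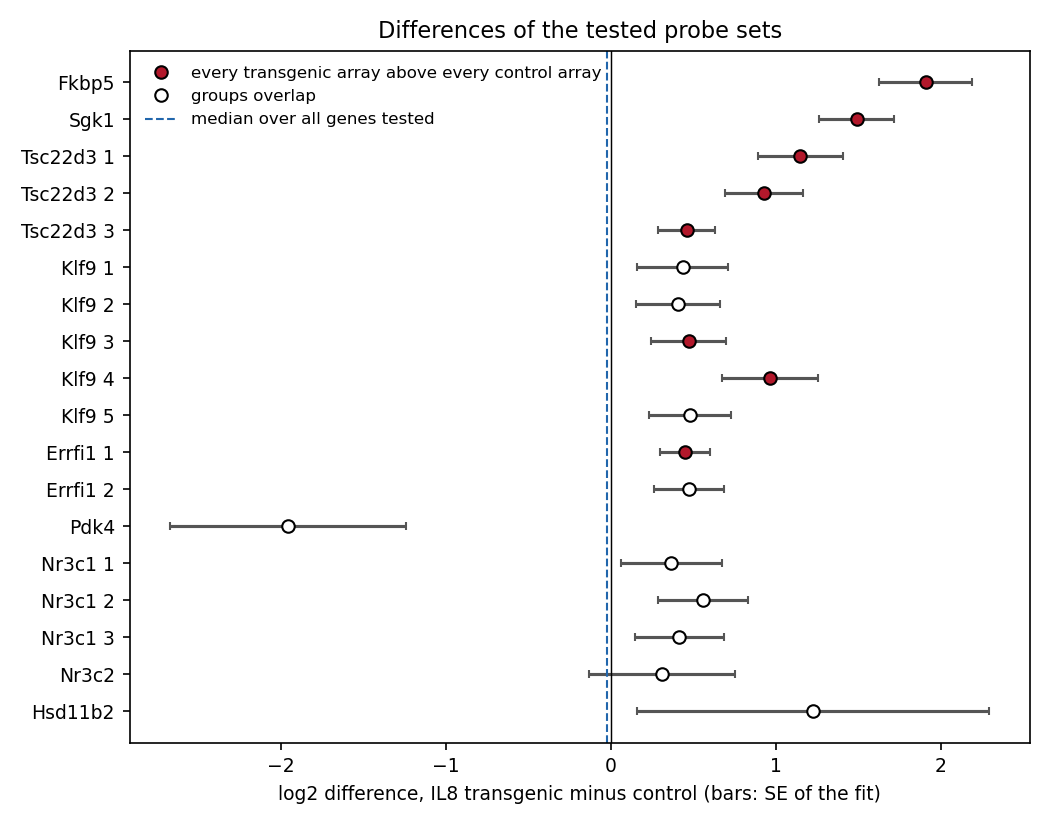
Log2 difference, IL8 transgenic minus control, of the 18 tested probe sets with the SE of the fit as bars, numbered within a gene from the brightest, filled where every transgenic array lay above every control array. The difference of Pdk4 alone lies below 0, and the bar of Nr3c2 spans 0.

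The receptors were measured next to their response genes. Nr3c1, the glucocorticoid receptor, was at 9.05, 9.09 and 8.21 on the transgenic arrays, against 8.60, 8.63 and 8.03 on the control arrays, and array 3 was the lowest in each group. The difference of 0.37 ± 0.30 (SE) was 0.17 when control array 3 was left out, and 0.65 when transgenic array 3 was. Its other 2 tested probe sets differed by 0.56 and 0.42, with overlap in each case, and its 3 remaining probe sets were under 4 on all arrays.

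Nr3c2, the mineralocorticoid receptor, was at 6.94, 8.45 and 7.38 on the transgenic arrays, against 7.79, 7.22 and 6.82 on the control arrays. Transgenic array 2 lay above the control range and the other 2 within it, and the difference was 0.31 ± 0.44 (SE). It was -0.12 when transgenic array 2 was left out and 0.64 when array 1 of that group was.

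Hsd11b2 converts cortisol or corticosterone to inactive forms and so lets aldosterone reach the mineralocorticoid receptor. It was at 6.94, 10.98 and 10.28 on the transgenic arrays, against 9.05, 7.96 and 7.52 on the control arrays. Arrays 2 and 3 of the transgenic group were above all controls and array 1 was below all of them. The difference of 1.22 ± 1.06 (SE) was 2.45, 0.44 or 0.78 when transgenic array 1, 2 or 3 was left out. Hsd11b1, the related enzyme that regenerates active glucocorticoid, was at 5.69, 5.64 and 5.37 on the transgenic arrays, against 5.60, 5.40 and 6.48 on the control arrays, and H6pd, which supplies its cofactor, differed by -0.43 ± 0.33 (SE).

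Hsd11b2 is a gene of differentiated colon epithelium, and its values were set beside 8 markers of mature absorptive colonocytes. The mean deviation of these markers from their control mean was -1.27, 1.53 and 2.48 on the transgenic arrays, against 1.84, -0.51 and -1.33 on the control arrays. Hsd11b2 deviated by -1.23, 2.80 and 2.11 on the transgenic arrays, against 0.87, -0.22 and -0.66 on the control arrays, so both were high on the same 3 arrays. The mean of 7 of the 8 markers was higher in the transgenic group, and the log2 of their summed signal ranged from 12.61 to 14.03 in transgenic and from 12.18 to 13.84 in control tumours. Car4, Aqp8 and Slc26a3, which are transport genes of surface colonocytes, were under 4 on transgenic array 1, and Car4 and Aqp8 also on control arrays 2 and 3. The part of these markers in the Hsd11b2 value was not tested, and in whole tumours fewer cells of a type and less RNA per cell cannot be told apart.

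The values of Fkbp5 and Sgk1 were set beside the same colonocyte markers. On transgenic array 1, where the markers and Hsd11b2 were low, Fkbp5 deviated from its control mean by 2.35 and Sgk1 by 1.85, the highest of the 6 arrays for both. On control array 1, where the markers were high, they deviated by 0.028 and 0.075. Without transgenic array 2, the array with squamous markers, the difference was 1.83 for Fkbp5 and 1.52 for Sgk1. The part of colonocytes or squamous cells in the Fkbp5 and Sgk1 values was not tested.

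**Figure D3:**
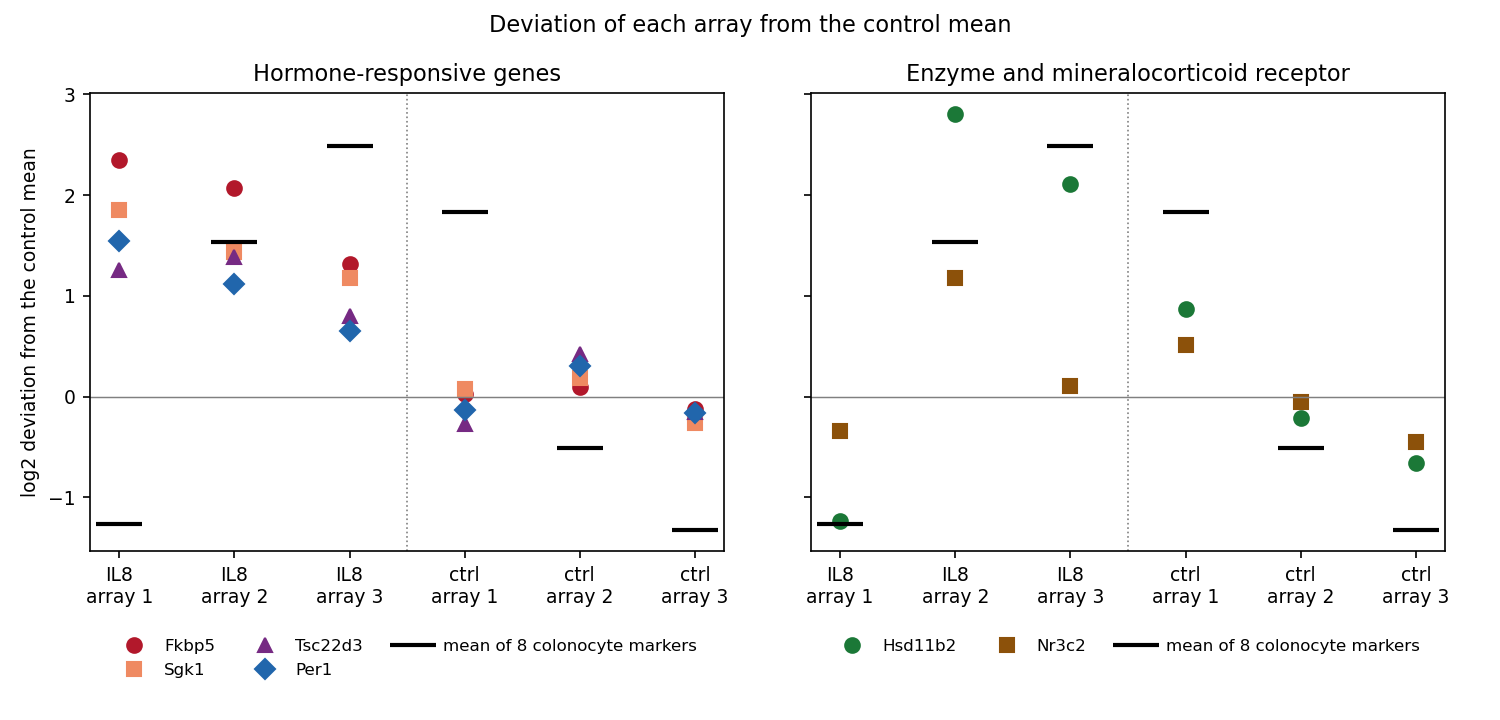
Log2 deviation of single genes from their control mean on each array, IL8 transgenic arrays left of the dotted line and control arrays right of it, with black bars for the mean deviation of 8 colonocyte markers. Fkbp5, Sgk1, Tsc22d3 and Per1 lie above all controls on every transgenic array, while Hsd11b2 lies at -1.23 on transgenic array 1, beside the markers at -1.27.

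Markers of other cell types were read in the same way. Ighm, the heavy chain gene of immunoglobulin M, was at 11.64, 9.93 and 9.73 on the transgenic arrays, against 3.36, 4.25 and 4.35 on the control arrays. It rose by 6.45 ± 0.56 (SE, limma adjusted p = 0.0316) and was the 1 cell type marker that passed, where 0.0486% of all genes did. Ighm had 11 probe sets, 7 of them tested, and these values are from the brightest. The plasma cell genes Jchain and Mzb1 differed by 0.25 and 0.67 with overlap. Cd79a and Cd79b, from the same list, were not tested and also overlapped. Of 6 neutrophil markers 3 were tested and 3 fell under the filter. The log2 summed signal of the 3 tested ranged from 12.02 to 13.00 in transgenic and from 11.25 to 11.86 in control tumours, and all 3 were higher. Of the 3 not tested, Csf3r was lower on every transgenic array, Ngp was higher on every one and Camp overlapped. That of 7 macrophage markers ranged from 10.48 to 11.69 against 11.82 to 12.29, and all 7 were lower. That of 5 fibroblast markers ranged from 12.66 to 13.24 against 13.37 to 13.58, and all 5 were lower. Among smooth muscle markers Cnn1 was at 9.28 and 8.36 on transgenic arrays 2 and 3, against 4.99 or less elsewhere. Of the fat cell markers, Adipoq was at 2.63 or less on every array, and Cidec and Lep were also under 4. Fabp4, from the same list, was at 9.36 to 10.02 on the transgenic arrays and 8.44 to 9.84 on the control arrays, with overlap. Of 4 T cell markers on the array 0 were tested. The part of these cell types in the values of the corticosteroid genes was not tested.

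Further glucocorticoid-responsive genes were taken from a list of 28, of which 24 were tested. Per1, a clock gene and direct receptor target, was at 6.85, 6.41 and 5.95 on the transgenic arrays, against 5.17, 5.60 and 5.13 on the control arrays, a difference of 1.11 ± 0.27 (SE). Dusp1, the phosphatase that turns off stress kinases, was at 10.79, 9.55 and 9.49 on the transgenic arrays, against 9.28, 9.27 and 9.06 on the control arrays, a difference of 0.74 ± 0.37. Both separated the groups, and transgenic array 3 was again the lowest of its group.

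Many other genes of the list showed little difference or the opposite one. The metallothionein gene Mt1 differed by 0.30, Mt2 by 0.025, the mRNA decay factor gene Zfp36 by 0.24, the NF-kB inhibitor gene Nfkbia by 0.041 and the lipid mediator regulator gene Anxa1 by 0.41. Ddit4, an inhibitor of mTOR signalling, differed by -0.19, Cebpd by -0.37, Bcl6 by -0.28 and Angptl4 by -0.24, and Klf15 was under 4 on all arrays. All of these but Klf15, which was not tested, overlapped between the groups.

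In the list of 24, the groups separated with the transgenic arrays above for 4 genes, Per1, Dusp1, Irs2 and Crispld2, and below for 1, Glul, the last 3 being named after their values were seen. Over all genes tested, at 1 probe set per gene, 4.77% separated upwards and 6.75% downwards. Glul, the glutamine synthetase gene, was at 12.33, 12.06 and 12.16 on the transgenic arrays, against 12.56, 12.62 and 12.68 on the control arrays. In all, 16 of 24 were higher and 8 lower, where 46.2% of all genes were higher. Beside -0.025 over all genes, the median of the 24 was 0.16. That median was 0.073 when transgenic array 1 was left out, 0.078 when control array 1 was, and 0.027 with the filter raised to 6. In limma's fit 0 of 24 passed in either direction, where 0.0486% of all genes did.

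The mineralocorticoid reading was followed through a list of 16 genes of aldosterone action and sodium transport, of which 12 were tested. The subunits of the epithelial sodium channel were at or near background. Scnn1g, the gamma subunit, was at 3.21, 5.05 and 4.51 on the transgenic arrays, against 2.99, 3.12 and 3.02 on the control arrays. Scnn1b, the beta subunit, was at 3.61, 5.42 and 3.94 on the transgenic arrays, against 3.73, 3.81 and 4.16 on the control arrays, and Scnn1a, the alpha subunit, was at 3.17 or less on all arrays. None of the 3 reached 4 on enough arrays to be tested. Scnn1g separated the groups with transgenic array 1 close above the controls, while Scnn1b overlapped.

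Fxyd4, a regulator of the sodium pump that is induced by aldosterone in rat colon, was at 9.96, 10.51 and 7.52 on the transgenic arrays, against 7.94, 7.48 and 7.08 on the control arrays. Its difference was 1.83 ± 0.77 (SE), with transgenic arrays 1 and 2 above the controls and array 3 among them. Atp12a, the colonic proton and potassium pump, was at 6.94, 10.44 and 10.96 on the transgenic arrays, against 10.61, 9.01 and 8.75 on the control arrays, a difference of -0.010. Slc9a3, the sodium and proton exchanger of surface cells, was at 11.36, 4.10 and 11.64 on the transgenic arrays, against 11.69, 11.78 and 12.04 on the control arrays. Nedd4l, the ubiquitin ligase that Sgk1 inhibits, differed by 0.12, the pump subunit gene Atp1b1 by 0.056 and the deubiquitinase gene Usp2 by 0.46, each with overlap.

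Of the 12 genes 10 were higher and 2 lower, where 46.2% of all genes were higher, and their median was 0.48. That median was 0.21 when transgenic array 2 was left out and 0.088 with the filter raised to 6. The groups separated upwards for Prss8, a protease that activates the channel, Cnksr3, a scaffold of the channel complex, and Kcnn4, a potassium channel, which were named after their values were seen, and downwards for Slc9a3. These are 3 and 1 of 12 genes, beside 4.77% upwards and 6.75% downwards over all genes. In limma's fit 0 of 12 passed in either direction, beside 0.0486% of all genes.

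Genes that handle the receptor protein were mostly lower. Of 11 receptor chaperone genes tested 10 were lower, where 5536 of all 10289 genes tested were lower. The median of the 11 was -0.38, and it was -0.21 when transgenic array 1 was left out. In all 11 the groups overlapped and 0 passed in limma's fit. Over all genes 4.77% separated upwards, 6.75% downwards and 0.0486% passed. Fkbp4, the co-chaperone that competes with Fkbp5 and promotes receptor transport, was at 9.99, 10.27 and 10.78 on the transgenic arrays, against 10.65, 10.89 and 10.86 on the control arrays, a difference of -0.45 ± 0.23 (SE). Hsp90aa1 was at 12.11, 11.99 and 12.74 on the transgenic arrays, against 12.60, 12.56 and 12.36 on the control arrays. In each case transgenic array 3 was close to or above the controls while arrays 1 and 2 were below them. For Fkbp5, which binds the same complex, arrays 1 and 2 were the highest of the 6.

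The receptor co-regulator genes showed no common direction. Ncoa1 differed by 0.58, Ncoa2 by 0.29, Med1 by 0.13, Nrip1 by -0.053, Crebbp by -0.073, Ncoa3 by -0.084, Ep300 by -0.12 and Smarca4 by -0.41. Only for Smarca4, a chromatin remodelling ATPase, did the groups separate among these 8, with the transgenic arrays lower, and 0 passed in limma's fit. Over all genes 6.75% separated downwards and 0.0486% passed.

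Most genes for steroid synthesis did not pass the filter on low values, but Cyp11a1 did. The intestine can make glucocorticoid locally through Nr5a2 and the Cyp11 enzymes. Cyp11a1, the side-chain cleavage enzyme, was at 8.50, 4.79 and 7.30 on the transgenic arrays, against 7.02, 7.24 and 7.96 on the control arrays, and differed by -0.55 ± 0.91 (SE). Cyp11b1, which makes the active hormone, was at 2.21 or less on every array, and Nr5a2 reached 4 on transgenic array 2 alone, at 5.39. The drug pump genes Abcb1a and Abcb1b, whose products export corticosteroids, differed by 0.50 and 0.95 with overlap, and Abcb1b was at 7.22 on transgenic array 1 and 4.81 or less elsewhere. Of the 5 genes tested 0 passed in limma's fit, beside 0.0486% of all genes.

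**Figure D4:**
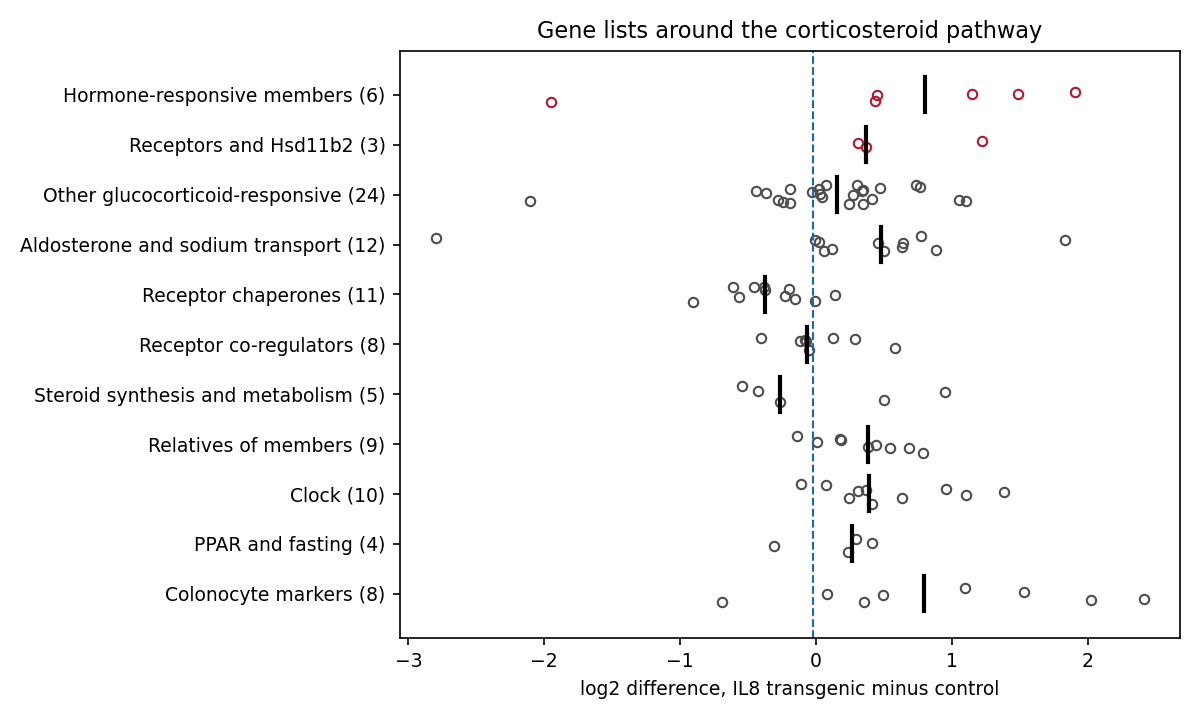
Log2 difference, IL8 transgenic minus control, of each tested gene in 11 lists, with black bars for the list median, the dashed line for the median over all genes tested, and the number tested in brackets. The response genes have a median of 0.80 with Pdk4 at -1.95, and the receptor chaperones a median of -0.38.

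Because Per1 and Klf9 also follow the time of day, the clock genes were listed beside them. Of 10 clock genes tested 9 were higher and 0 passed in limma's fit, where 46.2% of all genes were higher and 0.0486% passed. The groups separated upwards for 5, beside 4.77% of all genes: Per1, and Tef, Nr1d2, Arntl and Cry1, named after their values were seen, with differences of 0.31 to 0.64 for these 4. Per2 was at 5.38, 7.66 and 7.13 on the transgenic arrays, against 6.46, 5.75 and 3.83 on the control arrays, and Dbp was at 7.47, 9.39 and 8.61 on the transgenic arrays, against 8.77, 8.35 and 8.13 on the control arrays. Per2 and Dbp were lower on transgenic array 1 than on transgenic arrays 2 and 3, while Per1 was highest on that array. The part of collection time was not tested. Since fasting also induces Pdk4, 4 genes of fat metabolism were read. Cpt1a differed by 0.30, Acadm by 0.23, Ppargc1a by 0.41 and Plin2 by -0.31, and 0 passed. The groups separated upwards for Acadm, beside 4.77% of all genes, and overlapped for the others. Ppara, from the same list, was not tested.

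Relatives of the corticosteroid genes were compared with them, in a list that also holds Egfr, the receptor that Errfi1 inhibits. Of 9 tested, 8 were higher and 0 passed in limma's fit, where 46.2% of all genes were higher and 0.0486% passed. The median of the 9 was 0.38, which is the difference of Egfr. That median was 0.25 when either transgenic array 2 or control array 3 was left out. Sgk2 was at 6.38, 7.34 and 8.39 on the transgenic arrays, against 8.22, 6.09 and 5.74 on the control arrays, so it overlapped where Sgk1 did not. Sgk3 differed by 0.54 and Tsc22d1 by -0.14. Pgr, the progesterone receptor gene, was under 4 on all arrays.

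The genes with profiles most like those of Fkbp5 and Sgk1 were found by the root mean square difference between log2 profiles over the 6 arrays, each centred on its own mean, at 1 probe set per gene. For Fkbp5 the nearest of 10289 genes was Sgk1, at 0.27, followed by Fut4, a fucosyltransferase gene, Lrrc8e, Sgms2, a sphingomyelin synthase gene, and Mctp2, at 0.33 to 0.37. Tsc22d3 stood 14th at 0.46. For Sgk1 the nearest were Gprin3 at 0.20, Per1 at 0.23, Fkbp5 at 0.27, Tmc7 at 0.27 and Mctp2 at 0.29, and Tsc22d3 stood 6th at 0.29. In the order for Fkbp5, the receptor gene Nr3c1 stood 523rd, close to the response genes Klf9 at 430th and Errfi1 at 444th. Nr3c2 stood 3887th, Hsd11b2 9681st and the response gene Pdk4 10162nd. These ranks describe 6 arrays in 2 groups and share the group difference that chose the genes.

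The 2 hormone readings can be set side by side. Of the targets that either receptor can induce, Fkbp5, Sgk1, Tsc22d3 and Per1 separated the groups with differences of 1.11 to 1.91. Zbtb16, another such target, was under 4. Among the remaining response genes, Errfi1 separated at 0.45, while Klf9 at 0.43 and Pdk4 at -1.95 overlapped at their brightest probe sets. Of the genes that mark the mineralocorticoid system in colon, Nr3c2, Hsd11b2, Scnn1b, Fxyd4 and Atp12a overlapped. Scnn1g separated at values too low to test. Prss8, Cnksr3 and Kcnn4 separated upwards and Slc9a3 downwards, beside 4.77% upwards and 6.75% downwards over all genes. Over the whole lists, 12 aldosterone and sodium transport genes had a median difference of 0.48, with 3 separated upwards and 1 downwards. The 24 further glucocorticoid-responsive genes had a median of 0.16, with 4 separated upwards, 1 downwards and 19 overlapping. In the same order, these medians were 0.21 and 0.18 without transgenic array 2, and 0.088 and 0.027 with the filter raised to 6. The difference between these readings was not tested.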

How the data were processed

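Total RNA was hybridised to 6 Affymetrix arrays. The deposited values are log2 expression values per probe set that the authors made with GCRMA, per the submitters' processing notes. Its version and the genome build were not found in the sources at hand. Array medians lay at 3.31 to 3.36, which fits a log2 scale, and no further normalization was applied.

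Gene names came from the platform table, with X and Y linkage and promoter windows from RefSeq (GRCm38.p6). Probe sets at 4 or more on at least 3 arrays were tested, without 64 control probe sets, which left 19310 probe sets and 10289 genes. Groups, taken from sample titles, were set against each other by lmFit and eBayes of limma 3.58.1 (R 4.3.3), and p-values were adjusted by Benjamini-Hochberg across the whole tested table. The fit was tested on simulated data. In lists, the brightest tested probe set stood for a gene.

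The genes and lists were chosen with earlier results of these data known. Named were all 10 genes, fixed examples from each list, all tested genes of short lists and the 5 nearest profiles, while marker lists are summarised. Genes of the lists with no single-symbol probe set here were not analysed here. Alternatives were other filters, normalizations, variance models, array weights, a replicate block, a floor at 4, probe set averaging and each array left out.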

Additional observations from a re-analysis of the deposited data

How the results depend on the processing

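Under all 15 alternatives run, 0 probe sets of the corticosteroid genes passed. The count over all probe sets, 11, was 8 to 12 in the alternatives other than leaving out named X- and Y-linked genes, where it was 3. With values under 4 set to 4, no filter, other normalizations or probe set averaging, none of the 9 tested genes turned its direction. Zbtb16 entered only the fit with no filter. Fkbp5 ran from 1.55 with array quality weights to 2.21 without transgenic array 3. The median over the genes in each fit ran from 0.39 with array quality weights to 0.80 with the filter raised to 6. That filter left out Pdk4, the gene with the negative difference, so the 0.80 is over fewer genes. With array quality weights Nr3c1 was at -0.030 and Klf9 at 0.14. Nr3c2 ran from -0.12 to 0.64 with 1 array left out. The count of probe sets with every transgenic array above every control array, an alternative chosen after seeing the data, ran from 8 to 14 with 1 array left out. The cause of these shifts was not tested.

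With 1 array left out, list medians turned for the co-regulators (-0.14 to 0.072, with 0.062 without transgenic array 2), steroid synthesis (-0.48 to 0.49, with 0.064 without control array 3) and goblet cell markers (-0.087 to 1.51, with -0.082 without transgenic array 3).

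With the replicate number as a replicate block, 8 probe sets passed and 0 of these genes did. Same-numbered arrays deviated from their group means with correlations of -0.27, -0.28 and -0.051, and no transgenic array correlated best with its own number. Deviations within a group of 3 sum to 0, which ties these correlations together, so they cannot settle whether same-numbered samples were paired. With 3 arrays per group, differences within the spread of the arrays were not detectable.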
